A study of Mus musculus with 6 samples.

Results

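The neutrophil genes S100a8, S100a9, Ngp, Camp, Ltf, Mmp8, Cxcr2, Retnlg and Lcn2 were followed in the brains of adult mice with and without Bahd1. They were taken by gene symbol from the deposited table of read counts, in which they are 9 of 53801 genes, and all 9 passed the filter on low counts that left 23975 genes for testing. RNA-seq was performed on a single frozen brain hemisphere from each of 3 Bahd1-WT (Bahd1+/+) and 3 Bahd1-KO (Bahd1-/-) mice of strain C57BL/6, about 70 weeks old. Bahd1 encodes a chromatin protein of repressed genes, and the knockout is of the whole animal, so that brain cells and circulating blood cells carry it alike. A hemisphere holds neurons, glia, vessels and the blood left in them, with no sorting of cells. The libraries held 42297150 to 93557948 counts, and the floor of 3 counts corresponded to 0.0315 to 0.0690 CPM (counts scaled to the library size, with TMM normalization). Counts of Bahd1 were 1383, 844 and 1099 in Bahd1-WT replicates 1 to 3, against 0, 14 and 1 in Bahd1-KO replicates 1 to 3, as the labels give them. Some libraries stood apart: Bahd1-KO replicates 2 and 3 in how levels followed GC content, and Bahd1-WT replicates 1 and 2 by transcripts of lung.

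Neutrophils are short-lived white blood cells that are made in the bone marrow and patrol the blood, and few enter the healthy brain. While they mature they fill granules with antimicrobial proteins in a fixed order, so that granule genes such as Ngp, Camp, Ltf and Lcn2 are transcribed mainly in marrow precursors, whereas mature cells in the blood keep S100a8, S100a9 and Cxcr2 transcripts. S100a8 and S100a9 are also transcribed in monocytes, and Lcn2 also in reactive astrocytes and vessel cells. Transcription factors of the C/EBP family act in granulocyte maturation.

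The promoters of S100a8 and S100a9 are shown because these genes are neighbours whose protein products pair, and those of Mmp8 and Ngp because these granule genes had unlike values between the genotypes. Each covers 250 bases before to 50 bases after the RefSeq start of the gene, in build GRCm38.p6, written 5′ to 3′ on the strand of the gene. The RefSeq start can lie inside the GENCODE span given for a gene further on. Capitals mark matches to TTNNGCAA, a C/EBP-type motif searched on both strands.
S100a8 promoter, chr3:90668821-90669120, plus strand: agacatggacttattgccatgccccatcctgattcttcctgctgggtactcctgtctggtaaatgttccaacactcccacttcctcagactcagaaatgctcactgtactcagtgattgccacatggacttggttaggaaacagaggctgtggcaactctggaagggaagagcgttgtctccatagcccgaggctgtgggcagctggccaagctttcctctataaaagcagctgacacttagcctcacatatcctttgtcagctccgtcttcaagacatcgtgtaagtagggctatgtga
S100a9 promoter, chr3:90695672-90695971, minus strand: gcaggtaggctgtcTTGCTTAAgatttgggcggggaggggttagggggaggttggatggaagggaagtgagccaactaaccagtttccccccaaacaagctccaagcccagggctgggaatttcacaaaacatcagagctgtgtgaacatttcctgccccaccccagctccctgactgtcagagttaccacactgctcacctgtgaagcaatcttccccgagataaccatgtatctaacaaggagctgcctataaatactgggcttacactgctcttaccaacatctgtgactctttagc
Mmp8 promoter, chr9:7558179-7558478, plus strand: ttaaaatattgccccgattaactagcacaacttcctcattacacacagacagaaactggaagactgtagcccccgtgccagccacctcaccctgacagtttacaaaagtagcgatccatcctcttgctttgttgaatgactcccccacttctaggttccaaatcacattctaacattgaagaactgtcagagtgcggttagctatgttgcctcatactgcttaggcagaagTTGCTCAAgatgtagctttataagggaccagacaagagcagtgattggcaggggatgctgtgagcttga
Ngp promoter, chr9:110419558-110419857, plus strand: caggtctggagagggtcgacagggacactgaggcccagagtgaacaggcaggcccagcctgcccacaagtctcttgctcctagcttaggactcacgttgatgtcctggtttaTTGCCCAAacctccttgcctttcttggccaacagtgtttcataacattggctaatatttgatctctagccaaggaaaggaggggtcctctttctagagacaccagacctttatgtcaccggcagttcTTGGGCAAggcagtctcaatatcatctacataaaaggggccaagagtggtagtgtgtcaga

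All 9 members were found in the RefSeq promoter table, and 6 of them held the letters TTNNGCAA in this window (Lcn2, Ltf, Mmp8, Ngp, Retnlg and S100a9), against 10.8% of the 32851 promoters of the table. In Mmp8 the match begins at position -19 and in Ngp matches begin at positions -138 and -11, where 0 is the first transcribed base. S100a8, Camp and Cxcr2 had no match. The ETS-type letters GAGGAA were in 5 of the 9 promoters and in 28.3% of all, TATAAA in 3 and in 13.6%, and the Runx-type letters TGTGGT in 2 and in 16.8%. TGANTCA (AP-1) and a motif for NF-kB were in 0 of the 9, and in 7.81% and 0.411% of all promoters. The motifs are short and were picked after several had been tried, and a match is a description of the letters alone. The C/EBP-type letters were in Mmp8 as well as in Ngp, and not in Cxcr2.

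Whether the level of these genes differs with genotype was tested with edgeR's quasi-likelihood test across all 23975 genes. S100a8, Mmp8 and Cxcr2 had the lowest values in Bahd1-KO relative to Bahd1-WT brains, at 2.43-fold, 3.22-fold and 3.86-fold lower, and the granule genes Ngp and Ltf had nearly the same mean in both genotypes. A gene was called at an adjusted p under 0.05 and a fold of 2 or more, and 0 of the 9 members were called, against 2 genes (0.00834%) of all tested. At an unadjusted p under 0.05, 3 members were lower (S100a8, Mmp8 and Cxcr2) and 1 was higher (Camp), against 12% and 19.9% of all genes. For 4 members, S100a8, Mmp8, Cxcr2 and Retnlg, all Bahd1-KO samples lay below all Bahd1-WT samples, as for 19.3% of all genes, and for 0 members all lay above, as for 20.6% of all genes. The median log2 fold change of the 9 was -0.75, and that of all genes tested -0.06. S100a8, Mmp8 and Cxcr2 are on the study's own list of genes lower in these mice, so that their direction is not independent of it.

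**Figure D1:**
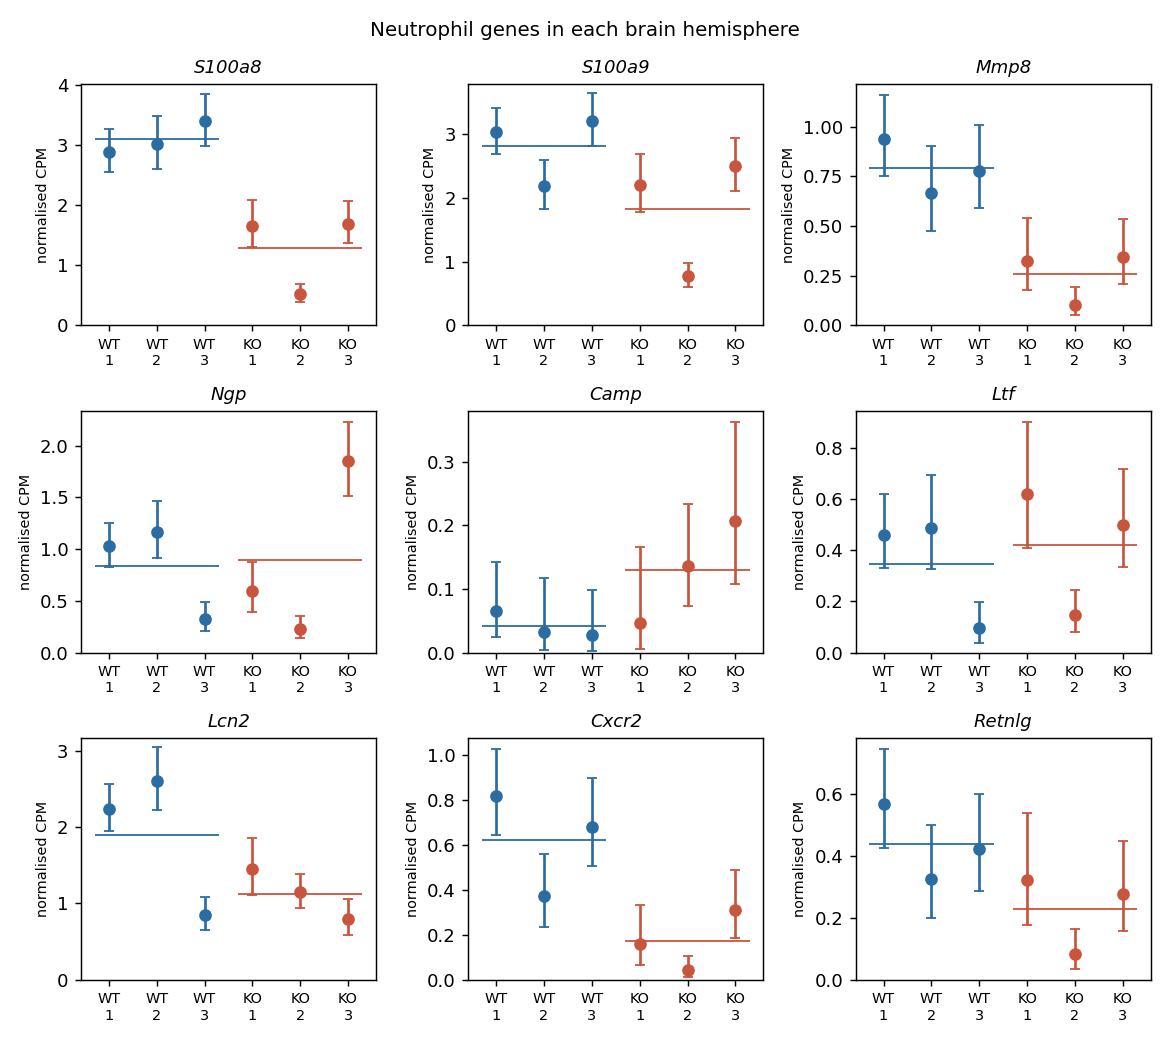
Normalised CPM (y axis, from 0, a separate scale for each gene) of the 9 neutrophil genes in the 3 Bahd1-WT (blue) and 3 Bahd1-KO (red) samples, with 95% Poisson intervals of the counts as bars and group means as horizontal lines. S100a8, Mmp8, Cxcr2 and Retnlg separate the genotypes, and Bahd1-KO replicate 2 is the lowest sample for 6 of the 9 genes.

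S100a8 and S100a9 encode the subunits of calprotectin, a calcium- and metal-binding alarmin that makes up much of the protein of the neutrophil cytosol. S100a8 (ENSMUSG00000056054, chr3:90668978-90670035, plus strand, GRCm38) stood at 2.89, 3.01 and 3.40 CPM in Bahd1-WT replicates 1, 2 and 3 and at 1.66, 0.525 and 1.69 CPM in Bahd1-KO replicates 1, 2 and 3. The groups did not overlap, the Bahd1-WT samples lay close together, and Bahd1-KO replicate 2 was the lowest. The means were 3.10 ± 0.266 and 1.29 ± 0.664 CPM (SD, n = 3 each). The log2 fold change (here and later with its standard error) was -1.28 ± 0.41, at an adjusted p of 0.0833 in edgeR's quasi-likelihood test. S100a9 (ENSMUSG00000056071, chr3:90692632-90695721, minus strand) lies 22596 bases away on the same chromosome. Its levels were 3.04, 2.19 and 3.20 CPM in Bahd1-WT and 2.21, 0.777 and 2.51 CPM in Bahd1-KO replicates, and the groups overlapped because Bahd1-WT replicate 2 was below Bahd1-KO replicates 1 and 3. The log2 fold change of S100a9 was -0.63 ± 0.41, with an adjusted p of 0.302 in edgeR's test.

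The ratio of S100a9 to S100a8 counts within a library does not depend on how libraries are scaled. It was 1.05, 0.726 and 0.944 in Bahd1-WT and 1.33, 1.48 and 1.48 in Bahd1-KO replicates, so that all 3 Bahd1-KO ratios were above all 3 Bahd1-WT ratios. The mean ratio was 0.908 ± 0.167 in Bahd1-WT and 1.43 ± 0.0846 in Bahd1-KO (SD, n = 3 each; exact two-sided permutation p = 0.1, the smallest that 3 samples against 3 allow, and 0.15 after adjustment over 3 ratios). The ratios were chosen after the values had been seen. Counting error alone gave 95% intervals of 0.887 to 1.25 for the highest Bahd1-WT ratio and 0.972 to 1.84 for the lowest Bahd1-KO ratio, which overlap. With an offset per library for GC content and length the ratios were 0.742 to 1.07 in Bahd1-WT and 1.35 to 1.45 in Bahd1-KO samples, still without overlap.

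**Figure D2:**
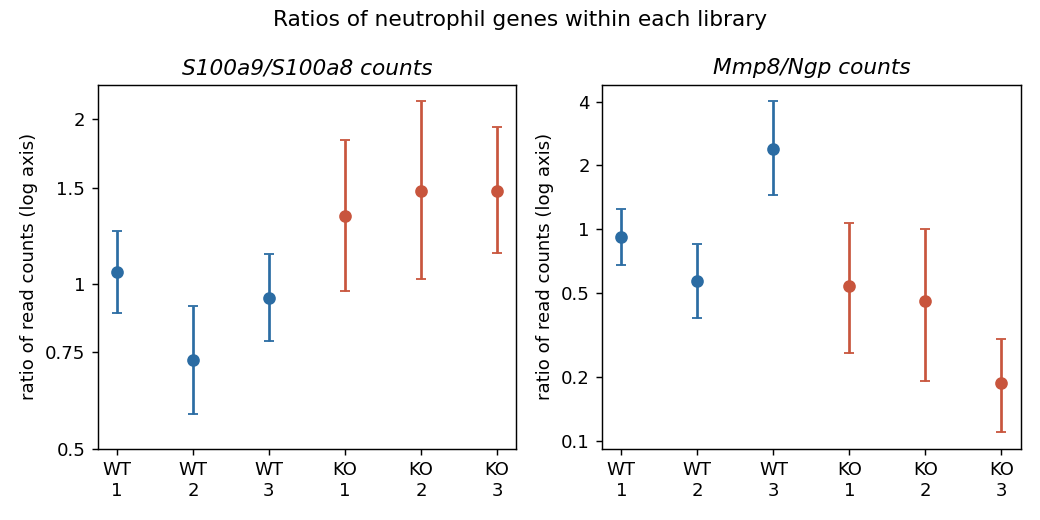
Ratios of read counts of 2 neutrophil genes within each library (log y axis), with 95% exact binomial intervals as bars, for S100a9 over S100a8 (left) and Mmp8 over Ngp (right) in the 3 Bahd1-WT (blue) and 3 Bahd1-KO (red) samples. S100a9 over S100a8 is 0.726 to 1.05 in Bahd1-WT and 1.33 to 1.48 in Bahd1-KO samples, and Mmp8 over Ngp is 0.569 to 2.38 and 0.187 to 0.539, a separation lost with the GC and length offset.

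Mmp8, neutrophil collagenase, is a matrix-degrading protease stored in the granules and released by activated cells. Mmp8 (ENSMUSG00000005800, chr9:7558456-7568485, plus strand) had 0.940, 0.664 and 0.777 CPM in Bahd1-WT and 0.322, 0.105 and 0.346 CPM in Bahd1-KO replicates. These values rest on 41 to 86 counts per Bahd1-WT and 10 to 20 counts per Bahd1-KO library. The groups were separate, with the highest Bahd1-KO sample well below the lowest Bahd1-WT sample. Mean levels were 0.794 ± 0.139 and 0.257 ± 0.133 CPM (SD, n = 3 each), and the log2 fold change of -1.69 ± 0.43 had the lowest adjusted p among the 9 members, 0.0638 in edgeR's test. In all, 3 members (Mmp8, Cxcr2 and S100a8) had an adjusted p under 0.1, as did 19.5% of all genes tested. Of the 9 other metalloproteinase genes of the Mmp8 cluster that were looked up, 4 passed the filter and none was lower or higher at an unadjusted p under 0.05. Mmp12, the macrophage elastase and best counted of them, had 0.579, 0.761 and 0.191 CPM in Bahd1-WT and 0.115, 0.210 and 0.328 CPM in Bahd1-KO replicates, where the groups overlapped.

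Cxcr2 encodes the receptor by which neutrophils leave the marrow and follow ELR chemokines such as Cxcl1, Cxcl2 and Cxcl5 to a site of injury. Cxcr2 (ENSMUSG00000026180, chr1:74153989-74161246, plus strand) had 0.820, 0.373 and 0.682 CPM in Bahd1-WT and 0.161, 0.0420 and 0.311 CPM in Bahd1-KO replicates, from 23 to 75 and from 4 to 18 counts. The groups did not overlap, but the gap between Bahd1-WT replicate 2 and Bahd1-KO replicate 3 was small beside the spread. The means were 0.625 ± 0.229 and 0.171 ± 0.135 CPM (SD, n = 3 each), and the log2 fold change of -1.95 ± 0.61 was the most negative of the members (adjusted p = 0.0795, edgeR's quasi-likelihood test). Among 13 genes for Cxcr2 ligands, their inducers and vessel adhesion molecules, 7 passed the filter, 1 was lower at an unadjusted p under 0.05 and none was higher. The lower gene was Cxcl5, a Cxcr2 ligand, at 1.08, 1.34 and 0.886 CPM in Bahd1-WT and 0.667, 0.420 and 0.708 CPM in Bahd1-KO replicates, with an adjusted p of 0.0925 in edgeR's test. With an offset per library for GC content and length its log2 fold change went from -0.90 to -0.32, no longer under that p. Vcam1 and Icam1, adhesion molecules of activated vessels, had log2 fold changes of -0.49 ± 0.22 and 0.28 ± 0.28, and both turned under the offset, to 0.15 and -0.36.

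Retnlg encodes a resistin-like protein of neutrophils. Retnlg (ENSMUSG00000022651, chr16:48872621-48874496, plus strand) had 0.568, 0.324 and 0.423 CPM in Bahd1-WT and 0.322, 0.0840 and 0.276 CPM in Bahd1-KO replicates. The groups were barely separate, since Bahd1-WT replicate 2 and Bahd1-KO replicate 1 were nearly equal. The log2 fold change was -1.03 ± 0.49, with an adjusted p of 0.182 in edgeR's test. The other resistin family genes were close to the floor, Retn with 4 to 20 counts and Retnla with 0 to 12 counts per library, and neither was lower or higher at an unadjusted p under 0.05.

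Ngp, Camp and Ltf encode proteins of the secondary (specific) granules, and lie on chromosome 9 with the Camp and Ltf genes 1169653 bases apart and Ngp between them. Ngp, the neutrophilic granule protein related to the cathelicidins, is ENSMUSG00000032484 (chr9:110419747-110423012, plus strand). It had 1.03, 1.17 and 0.327 CPM in Bahd1-WT and 0.598, 0.231 and 1.85 CPM in Bahd1-KO replicates, where the highest sample of all was Bahd1-KO replicate 3 and the lowest Bahd1-KO replicate 2. The highest sample was 3.56-fold above the lowest in Bahd1-WT, and the spread in Bahd1-KO was wider still. The log2 fold change was 0.07 ± 0.71 (adjusted p = 0.953, edgeR's quasi-likelihood test). Ltf (ENSMUSG00000032496, chr9:111019271-111042767, plus strand), the iron-binding lactoferrin, had 0.459, 0.486 and 0.0955 CPM in Bahd1-WT and 0.621, 0.147 and 0.501 CPM in Bahd1-KO replicates. The lowest of these samples were Bahd1-WT replicate 3 and Bahd1-KO replicate 2, as for Ngp, and the log2 fold change was 0.23 ± 0.65 (adjusted p = 0.829, edgeR's quasi-likelihood test).

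Camp (ENSMUSG00000038357, chr9:109847379-109849617, minus strand), the antimicrobial cathelicidin, was near the limit of detection. Its reads numbered 6, 2 and 2 in the Bahd1-WT replicates and 2, 13 and 12 in the Bahd1-KO replicates, and 3 of the 6 libraries were at or under the floor. Bahd1-KO replicates 2 and 3 were above the rest, and Bahd1-KO replicate 1 lay within the Bahd1-WT samples. The normalised level was 0.0417 ± 0.0208 CPM in Bahd1-WT and 0.130 ± 0.0809 CPM in Bahd1-KO (SD, n = 3 each), and the log2 fold change was 1.59 ± 0.66 (adjusted p = 0.142, edgeR's quasi-likelihood test). Summed over replicates, 27 counts in Bahd1-KO against 10 in Bahd1-WT gave a depth-corrected ratio of 3.11 with a 95% counting interval of 1.46 to 7.20. This interval leaves out the spread between mice, so that it is not a test of genotype.

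The ratio of Mmp8 to Ngp counts, 2 granule genes with unlike values, was 0.915, 0.569 and 2.38 in Bahd1-WT and 0.539, 0.455 and 0.187 in Bahd1-KO replicates. Every Bahd1-KO ratio was below every Bahd1-WT ratio, by little for Bahd1-WT replicate 2 (exact two-sided permutation p = 0.1, and 0.15 after adjustment over 3 ratios). Once an offset per library for GC content and length was applied to both genes, the groups overlapped, with ratios of 0.799, 0.438 and 2.05 in Bahd1-WT and 0.541, 0.706 and 0.207 in Bahd1-KO replicates. The ratio of Ltf to Ngp, genes of the same granule, was 0.447, 0.417 and 0.292 in Bahd1-WT and 1.04, 0.636 and 0.271 in Bahd1-KO replicates, where the groups overlapped (exact two-sided permutation p = 0.5).

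Lcn2 (ENSMUSG00000026822, chr2:32384633-32388252, minus strand) encodes lipocalin 2, a secondary granule protein that withholds iron from bacteria by binding their siderophores. Its levels were 2.24, 2.61 and 0.845 CPM in Bahd1-WT and 1.45, 1.15 and 0.795 CPM in Bahd1-KO replicates. Bahd1-WT replicate 3 fell within the Bahd1-KO range, so that the groups overlapped, and the log2 fold change was -0.75 ± 0.42 (adjusted p = 0.241, edgeR's quasi-likelihood test). For 4 members, Ngp, Camp, Ltf and Lcn2, the lowest Bahd1-WT sample was replicate 3, where Camp had only 2 reads. As Lcn2 is also made by reactive astrocytes, their 9 listed genes were read beside it. Of these, 2 were lower (Osmr and Cp) and 4 higher (Gfap, Serpina3n, Timp1 and S1pr3) at an unadjusted p under 0.05, and with the GC and length offset 1 of these 6 (S1pr3) was still under it. Gfap, the astrocyte filament protein, was at 226, 191 and 160 CPM in Bahd1-WT and 221, 429 and 270 CPM in Bahd1-KO replicates. Osmr, a cytokine receptor subunit, was at 15.2, 14.7 and 9.26 CPM in Bahd1-WT and 10.8, 7.01 and 8.05 CPM in Bahd1-KO replicates, with Bahd1-WT replicates 1 and 2 the highest samples, as for Lcn2. The part of astrocytes in the Lcn2 level was not tested.

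Levels of the members can be compared with each other only per length of transcript. In Bahd1-WT brains the mean was 5.38 CPM per kilobase of exon for S100a9 and 4.46 for S100a8, then 0.739 for Retnlg, 0.724 for Lcn2, 0.688 for Ngp, 0.327 for Mmp8, 0.205 for Cxcr2, 0.101 for Ltf and 0.0551 for Camp. The calprotectin genes were thus far above the others. S100a9 and S100a8 did not differ beyond their spread (SD 1.05 and 0.383 CPM per kilobase, n = 3), nor did Retnlg, Lcn2 and Ngp (SD 0.207, 0.354 and 0.368). In Bahd1-KO brains the first places were the same, with 3.51 CPM per kilobase for S100a9 and 1.86 for S100a8, followed by Ngp at 0.730.

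The outcome for S100a8, Mmp8 and Cxcr2 depended on the test. DESeq2's Wald test called these 3 genes lower with and without the prior that shrinks fold changes, against 1.13% and 1.31% of the genes to which it gave an adjusted p, and their adjusted p without the prior were 0.0144, 0.00705 and 0.0194. edgeR's likelihood-ratio test also called these 3 lower (1.96% of all genes), as did the quasi-likelihood test when every gene with at least 1 count was kept (0.863%). When Bahd1-KO replicate 1 was left out, edgeR's quasi-likelihood test called S100a8 and Mmp8 lower (adjusted p = 0.0362 and 0.0226), against 2.26% of all genes.

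The libraries differed in how levels followed the GC content of transcripts, and Bahd1-KO replicate 2 stood farthest from the Bahd1-WT libraries. Across 14693 genes with a mean of at least 1 CPM, the deviation of a library from the mean of all 6 had a Spearman correlation with GC content of -0.72, -0.81 and -0.78 in Bahd1-WT and -0.18, 0.87 and 0.70 in Bahd1-KO replicates, which is a description across genes. The GC content of the members ran from 43.4% in Mmp8, 44.2% in S100a8, 45.1% in S100a9 and 45.6% in Cxcr2 to 54.2% in Camp and 54.4% in Lcn2. With an offset per library for GC content and length, the log2 fold change was -1.08 ± 0.36 for S100a8, -1.25 ± 0.38 for Mmp8 and -1.60 ± 0.57 for Cxcr2, with adjusted p of 0.123, 0.105 and 0.140 in edgeR's test. Under the offset 2 members, S100a8 and Mmp8, had no overlap between the genotypes, with Bahd1-KO the lower, against 7.86% of all genes. The value of Lcn2 moved the other way, from -0.75 to -1.33 ± 0.43, and that of Camp from 1.59 to 0.98 ± 0.69. At an unadjusted p under 0.05, 4 members were then lower (S100a8, Mmp8, Cxcr2 and Lcn2), against 5.89% of all genes. Camp was no longer higher at that p.

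Bahd1-KO replicate 2 was the lowest of the 6 samples for 6 members. Without it the log2 fold changes in edgeR's test were -0.89 for S100a8, -1.25 for Mmp8, -1.37 for Cxcr2, -0.57 for Retnlg and -0.25 for S100a9, and 0.57 for Ngp and 0.69 for Ltf. The same 3 members, S100a8, Mmp8 and Cxcr2, were then lower at an unadjusted p under 0.05 (9.35% of all genes), and the same 4 were without overlap (22.3% of all genes). The part of the GC trend in these values was not tested beyond the offset.

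**Figure D3:**
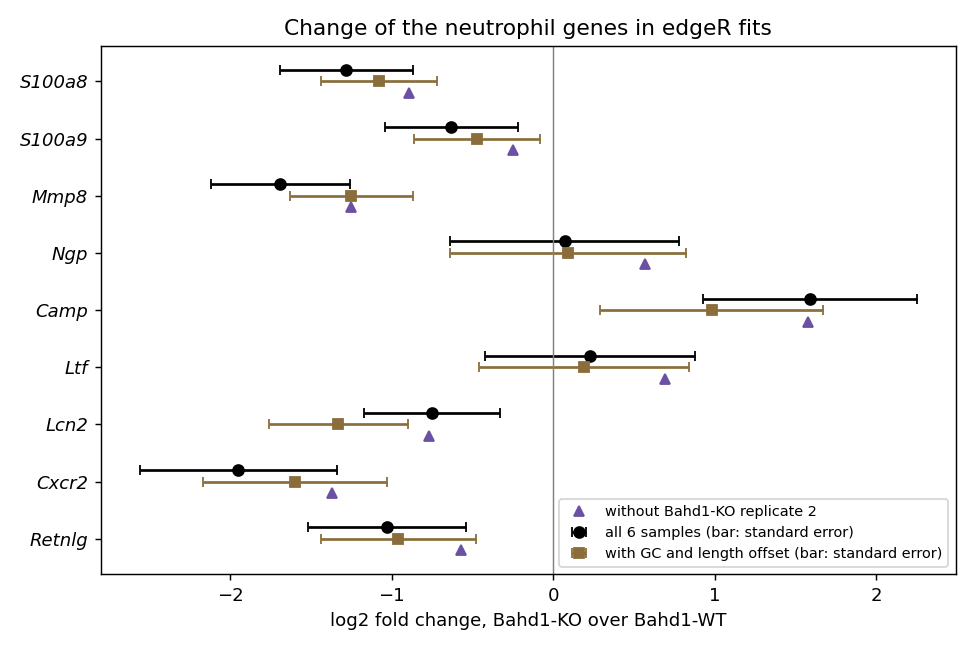
Log2 fold change of Bahd1-KO over Bahd1-WT (x axis) of the 9 neutrophil genes in edgeR fits on all 6 samples (black circles), with the GC and length offset (brown squares) and without Bahd1-KO replicate 2 (purple triangles, no bar), with standard errors as bars. S100a8, Mmp8, Cxcr2, Retnlg, S100a9 and Lcn2 lie below 0 in the 3 fits shown, Camp lies above 0, and the bars of Ngp and Ltf cross 0.

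Other genes of neutrophil granules and maturation were read from lists. Among 17 further genes of secondary and tertiary granules, 16 passed the filter, of which 3 were lower (Cybb, Lyz2 and Chil3) and 2 higher (Cyba and Pglyrp1) at an unadjusted p under 0.05, and 0 passed the adjusted threshold. With the GC and length offset 2 of these 5 (Chil3 and Cyba) were still under that p in the same direction. Chil3 had 3.86, 1.47 and 0.164 CPM in Bahd1-WT and 0.253, 0.105 and 0.415 CPM in Bahd1-KO replicates. Its Bahd1-WT replicate 3 thus lay within the Bahd1-KO range, and its high samples were Bahd1-WT replicates 1 and 2, which carry transcripts of lung. The part of the lung signal in its level was not tested. The median log2 fold change of the 16 was -0.19. Lyz2, lysozyme of neutrophils and macrophages, had 37.3, 21.6 and 13.1 CPM in Bahd1-WT and 12.4, 13.2 and 15.2 CPM in Bahd1-KO replicates, where Bahd1-WT replicate 3 lay within the Bahd1-KO range. The number lower at an unadjusted p under 0.05 was 0 without Bahd1-WT replicate 1, and 1 without Bahd1-WT replicate 2 or Bahd1-KO replicate 2. Itgam, the integrin CD11b that microglia also carry, had a log2 fold change of -0.18 ± 0.25, and of 0.01 with the offset. Pglyrp1, a granule protein that binds bacterial cell wall, had 4.75, 4.11 and 3.86 CPM in Bahd1-WT and 7.06, 9.29 and 4.85 CPM in Bahd1-KO replicates. 

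Primary granule genes are transcribed in the earliest marrow precursors. A list of 10 genes joined them with regulators and other genes of precursors, and 6 passed the filter (the primary granule genes Elane, Mpo and Prtn3, and Cebpa, Csf3r and Hdc, which are not granule genes). Of these 6, 0 were lower and 2 higher (Mpo and Prtn3, named after their values were seen) at an unadjusted p under 0.05, and the number higher was 4 without Bahd1-KO replicate 1 and 1 without Bahd1-KO replicate 2. Prtn3, proteinase 3, had 0.284, 0.0972 and 0.123 CPM in Bahd1-WT and 0.230, 1.36 and 0.570 CPM in Bahd1-KO replicates. Mpo, myeloperoxidase, had 2, 2 and 3 reads in the Bahd1-WT replicates and 2, 17 and 22 reads in the Bahd1-KO replicates, the same samples being high as for Camp. Mpo was still higher at that p with the GC and length offset, and Prtn3 was not. Csf3r, the receptor for the growth factor of granulocytes, had a log2 fold change of 0.68 ± 0.36, and of 0.25 with the offset.

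Of 18 listed genes of mature neutrophils, 11 passed the filter and 1 was higher (G0s2) at an unadjusted p under 0.05. Il1b, the cytokine interleukin 1 beta that macrophages also make, had 0.535, 0.340 and 1.13 CPM in Bahd1-WT and 0.299, 0.158 and 0.311 CPM in Bahd1-KO replicates, barely without overlap (log2 fold change -1.43 ± 0.50, adjusted p = 0.0991 in edgeR's test). G0s2, an inhibitor of lipolysis found in many tissues, had 1.45, 0.535 and 0.791 CPM in Bahd1-WT and 1.52, 7.22 and 2.71 CPM in Bahd1-KO replicates. The summed level of the list overlapped between the genotypes with G0s2, and without it, a choice made after the values were seen, was 3.63, 2.69 and 3.55 CPM in Bahd1-WT and 2.30, 1.97 and 2.54 CPM in Bahd1-KO replicates, without overlap. With the GC and length offset these sums overlapped as well, at 2.46 to 3.55 and 1.89 to 2.70 CPM. The markers that define mouse neutrophils most closely were at or under the floor, Ly6g with 0 to 2 counts and Cxcr1 with 0 to 2 counts in every library, so that neither was tested. The label of the 9 genes as neutrophil genes thus could not be checked against Ly6g at this depth.

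The receptors through which the member proteins act were read from a list of 11 genes, of which 10 passed the filter. None was lower and 3 were higher at an unadjusted p under 0.05, namely Slc22a17, the lipocalin 2 receptor, Lrp1, a scavenger receptor that takes up lactoferrin, and Bsg, which binds S100a9. Slc22a17 had 83.5, 57.4 and 77.1 CPM in Bahd1-WT and 120, 371 and 184 CPM in Bahd1-KO replicates, without overlap, and a log2 fold change of 1.63 ± 0.38 that was 0.62 with the GC and length offset. Under the offset Lrp1 was at 0.93 and Bsg turned from 0.51 to -0.48, lower at an unadjusted p under 0.05. Tlr4, which senses calprotectin, was at a log2 fold change of -0.46 ± 0.33, and at 0.19 under the offset. Of 14 other S100 genes, 13 passed the filter, 0 were lower and 3 higher (S100a10, S100a16 and S100b) at an unadjusted p under 0.05, and S100a16 was at 0.01 with the offset. S100b, the astrocyte member of the family, had 239, 224 and 238 CPM in Bahd1-WT and 271, 360 and 301 CPM in Bahd1-KO replicates, in contrast to the lower values of S100a8.

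In bulk tissue, fewer cells of a type and less RNA per cell cannot be told apart, and marker lists of other cells in the hemisphere were read beside the members. The summed level of the 9 members was 12.04, 10.85 and 9.78 CPM in Bahd1-WT and 7.38, 3.19 and 8.48 CPM in Bahd1-KO replicates. With the GC and length offset the sums were 12.3, 10.8 and 9.18 CPM in Bahd1-WT and 6.56, 3.00 and 9.83 CPM in Bahd1-KO replicates, so that Bahd1-KO replicate 3 then lay above Bahd1-WT replicate 3. A list of 8 red cell genes was read as a gauge of blood left in the tissue, and 0 were lower and 4 higher at an unadjusted p under 0.05, all 4 of them haemoglobin genes, whose near-identical copies can share reads. The erythroid genes Alas2 and Slc4a1 did not go with them, with log2 fold changes of -0.05 and -0.17. Under the GC and length offset these were -0.41 and -0.74, both at an unadjusted p under 0.05. The 4 haemoglobin genes were still higher at that p with the offset, at log2 fold changes from 1.36 (Hba-a2) to 1.84 (Hba-a1). Hbb-bs, a beta globin, was at 5.43, 6.54 and 8.92 CPM in Bahd1-WT and 7.98, 55.1 and 19.4 CPM in Bahd1-KO replicates, so that the sample with the most globin, Bahd1-KO replicate 2, had the smallest sum of the neutrophil genes. The platelet list of 7 genes had 0 lower and 2 higher genes (Itga2b and Gp9, of which Gp9 with the offset as well), with a sum of 1.36 to 1.88 CPM in Bahd1-WT and 2.32 to 3.34 CPM in Bahd1-KO samples. Among 8 monocyte genes, 3 were lower (Ccr2, Vcan and Klra2) and 0 higher, and the sums overlapped, at 76.8 to 98.8 CPM and 80.7 to 112.5 CPM. With the GC and length offset 0 of these 3 were under an unadjusted p of 0.05, and the median log2 fold change of the list went from -0.56 to -0.02. Ccr2, the chemokine receptor of inflammatory monocytes, had 0.984, 0.535 and 0.927 CPM in Bahd1-WT and 0.391, 0.221 and 0.570 CPM in Bahd1-KO replicates. The lymphocyte list of 10 genes had 0 lower genes and 1 higher gene (Ighm), with sums of 20.3 to 23.4 CPM and 25.8 to 36.1 CPM. Of 8 microglia genes, 0 were lower and 2 higher (Tmem119 and Csf1r, neither of them with the offset), and their sum was 322 to 376 CPM in Bahd1-WT and 263 to 348 CPM in Bahd1-KO samples. The sums of platelet and of lymphocyte genes, separate between the genotypes as given, overlapped with the offset.

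Genes of dividing cells and of lung were also read. Among 8 genes of dividing cells, 3 were lower (Mki67, Top2a and Cdk1) and 0 higher at an unadjusted p under 0.05, of which 1 (Mki67) with the GC and length offset as well, and their sum was 7.32 to 16.6 CPM in Bahd1-WT and 5.05 to 5.70 CPM in Bahd1-KO samples, and overlapped with the offset. Genes of lung and airway, which a brain should lack, summed to 126, 28.9 and 2.95 CPM in Bahd1-WT and to 0.690, 2.01 and 1.62 CPM in Bahd1-KO replicates, with 10 of 12 lower and 0 higher at an unadjusted p under 0.05. Scgb1a1, the secretoglobin of airway club cells, had 48.6, 14.9 and 0.941 CPM in Bahd1-WT and 0.115, 0.0105 and 0.0691 CPM in Bahd1-KO replicates. Bahd1-WT replicate 3 had the least lung signal of its genotype. Among the Bahd1-WT samples it held the highest S100a8 and S100a9 levels and the lowest Ngp, Camp, Ltf and Lcn2 levels. Bahd1-WT replicate 1, with the most lung signal, held the highest Mmp8, Cxcr2 and Retnlg levels. The part of the lung signal in the member values was not tested. Neuronal and glial genes of the labelled tissue, brain, summed to 13890 to 15080 CPM in Bahd1-WT and 13550 to 15100 CPM in Bahd1-KO samples, with 1 of 9 lower (Aqp4) and 3 higher (Rbfox3, Slc17a7 and Mbp) at an unadjusted p under 0.05. With the offset Mbp was still higher, Rbfox3 turned from 0.78 to -0.30, lower at that p, and the other two were not under it, while the sum was higher in every Bahd1-KO than in every Bahd1-WT sample.

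**Figure D4:**
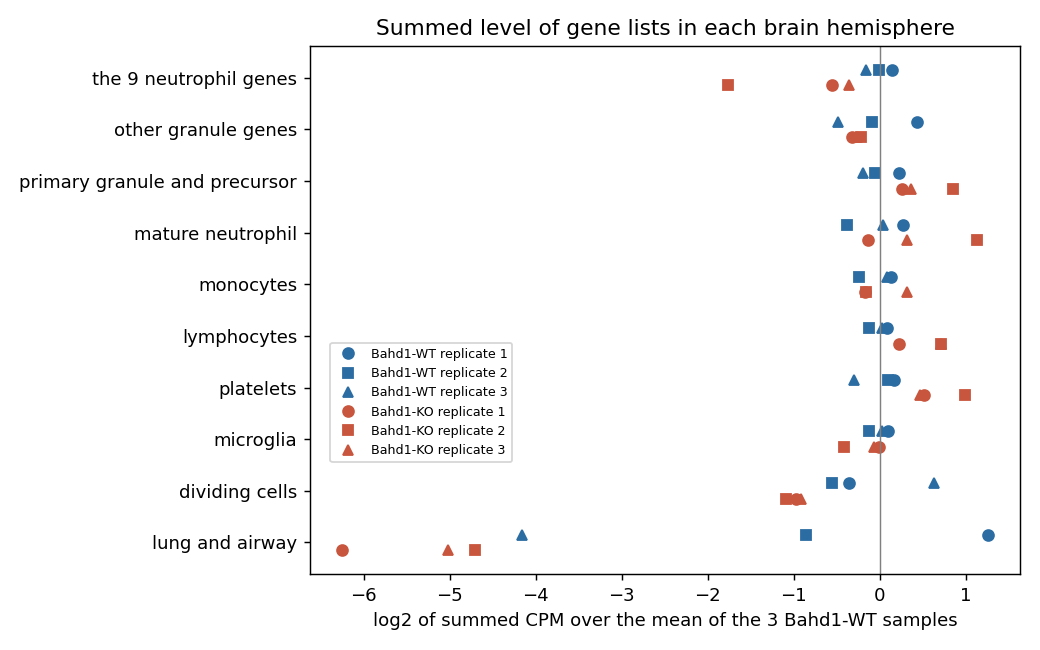
Summed CPM of each gene list in the 3 Bahd1-WT (blue) and 3 Bahd1-KO (red) samples, as log2 of its ratio to the Bahd1-WT mean (x axis, with 0 at that mean). Circles, squares and triangles are replicates 1, 2 and 3 of a genotype. The sums of the 9 neutrophil genes are 3.19 to 8.48 CPM in Bahd1-KO and 9.78 to 12.04 CPM in Bahd1-WT samples, and those of monocyte genes overlap between genotypes. With the GC and length offset, not drawn here, the sums of the 9 genes overlap too. The high sum of mature neutrophil genes in Bahd1-KO replicate 2, 9.20 CPM, is mostly G0s2, at 7.22 CPM.

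When Bahd1-WT replicate 1, with the most lung signal, and Bahd1-KO replicate 2 were left out together, an alternative added after the data were seen, the median log2 fold change of the members was -0.31. S100a8 was then at -0.91 (adjusted p = 0.0979, edgeR's quasi-likelihood test), Mmp8 at -1.08 (adjusted p = 0.149, edgeR's quasi-likelihood test) and Cxcr2 at -1.10 (adjusted p = 0.252, edgeR's quasi-likelihood test), with S100a8 and Mmp8 lower at an unadjusted p under 0.05 (4.87% of all genes). Without Bahd1-WT replicate 1 alone the log2 fold changes were -1.33 for S100a8, -1.55 for Mmp8 and -1.70 for Cxcr2, and without Bahd1-WT replicate 2 alone -1.30, -1.80 and -2.20.

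The members did not share a single pattern across the 6 samples. Their mean centred profile on the log2(CPM + 0.1) scale was 0.59, 0.33 and 0.02 in Bahd1-WT and -0.09, -1.01 and 0.16 in Bahd1-KO replicates, with Bahd1-KO replicate 2 far below the others. The correlation of a member with this profile, to which it contributes, was 0.92 for Retnlg, 0.89 for S100a8, S100a9 and Mmp8, 0.86 for Cxcr2, 0.74 for Ngp, 0.54 for Ltf, 0.43 for Lcn2 and -0.34 for Camp. Among 11812 other genes with a mean of at least 0.2 CPM and enough spread, the 10 most like the profile were Trim56 (Pearson's r = 0.996 over 6 samples), Msi2, Pde3a, Mcc, Ikzf2, 9430037G07Rik, Itga1, Tgfbr1, Pfkfb2 and Gm37277 (r = 0.982). As 139 genes had an r above 0.95 over these 6 samples, whose libraries differ in depth and GC trend, the likeness is a description. Trim56 had 20.3, 18.1 and 15.97 CPM in Bahd1-WT and 15.3, 11.3 and 17.5 CPM in Bahd1-KO replicates, and a log2 fold change of -0.30 ± 0.21.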

How the data were processed

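RNA was extracted from frozen brain hemispheres, and the libraries were made from it with the TruSeq kit, per the labels. The authors counted reads on exons, and deposited whole-number counts per gene, neither normalised nor filtered, with 1 column per mouse. The submitters' processing notes name cutadapt 1.11, STAR 2.5.0a, featureCounts 1.4.6-p3 and GRCm38. According to the study's methods, the counting used the strand of the reads. The number of columns from other samples was 0. The replicate numbers of the labels name different mice, so that p-values measure the spread between mice.

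Genes whose 6 samples summed to 10 counts or more were tested with edgeR 4.0.16 (TMM, quasi-likelihood, genotype as the only factor) in R 4.3.3, and a call required a Benjamini-Hochberg adjusted p under 0.05 and a fold of 2 or more. CPM values use TMM-scaled library sizes. DESeq2 1.42.0, edgeR's likelihood-ratio test, other scalings, filters of 1 and 60 counts, leaving out each sample, a replicate block, and splines of log2 CPM on GC content (5 degrees of freedom) and length (3) were alternatives. The script was tested on simulated counts. Intervals and floors cover counting error only. Annotation was GENCODE M21 (GRCm38), which lacked 35 of the genes tested, and promoters came from RefSeq. Ratios were compared by exact permutation with scipy 1.17.1.

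The members and lists were chosen with earlier results of these data known. Named genes are the 9 members, Bahd1, the 4 genes of each list with the highest mean CPM or any called, and the 10 genes most like the members. Not all of these are printed, and the genes of lists that are named with their counts at an unadjusted p were named after their values were seen, as were Ly6g, Cxcr1, Mpo and Tlr4. Items among the listed genes are not reported here.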

Additional observations from a re-analysis of the deposited data

How the results depend on the processing

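With 3 mice per genotype and 4 to 145 counts per Bahd1-KO library for members other than Camp, small differences were not detectable. The number of members called lower was 0 in edgeR's quasi-likelihood test, 3 in DESeq2 with and without the prior, 3 in the likelihood-ratio test, 3 with genes of at least 1 count kept, and 0 to 2 when a sample was left out. The median log2 fold change of the members was between -1.08 and -0.57 when a sample was left out, and those of Ngp and Ltf reached 0.77 and 0.98 without both Bahd1-WT replicate 1 and Bahd1-KO replicate 2. Upper-quartile factors moved the median of all genes from -0.06 to -0.20 and the GC and length offset moved it to 0.09. The number of members without overlap was 4 (19.3% of all genes), against 3 with total counts alone (14.6%), 4 or 5 when a sample was left out (22.2% to 30.4%), and 2 with the offset, with or without the block (7.86%). Ngp changed sign with upper-quartile factors (-0.05) and without Bahd1-WT replicate 3 (-0.31) or Bahd1-KO replicate 3 (-1.08), as did Ltf without Bahd1-WT replicate 3 (-0.22) or Bahd1-KO replicate 1 (-0.13). Camp was past the threshold without Bahd1-KO replicate 1 (log2 fold change 1.96, adjusted p = 0.0441 in edgeR's test), and DESeq2 gave it no adjusted p. The cause of these changes was not tested.

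The replicate numbers were not taken to pair the samples. The deviations of same-numbered samples from their genotype mean had correlations of -0.629, -0.642 and -0.142 across genes. These values cannot decide whether the samples were paired, because the libraries of a genotype also differed in GC trend. With the replicate block, 0 members were called in edgeR and 3 (S100a8, Mmp8 and Cxcr2) in DESeq2, an alternative added after the data were seen. The share called lower in DESeq2 was 0.647% of the genes to which it gave an adjusted p, which left out Camp, Ltf and Retnlg. Under the block Ngp was at -0.27, with the offset as well at -0.29, and in DESeq2 at -0.29. With the block and the offset together 5 members were lower at an unadjusted p under 0.05, against 4.39% of all genes.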
